A study of Homo sapiens with 4 samples.

Results

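NFE2L2, the gene of the transcription factor NRF2, and 8 genes that NRF2 is known to switch on were followed in SKOV3 cells exposed to ginsenoside 20(S)-Rg3. The 9 genes are NFE2L2, NQO1, HMOX1, GCLC, GCLM, TXNRD1, SRXN1, OSGIN1 and FTH1. They were taken by gene symbol, whatever their values, and all 9 were found among the 40205 rows of the count table. All 9 passed the low-count filter, as did 16323 rows in all. SKOV3 is an established human ovarian cancer cell line. The Rg3 group held 2 libraries of cells given the ginseng saponin at 80 µg/mL for 24 h, and the control group held 2 libraries of cells labelled control, for which the labels name no vehicle. Both groups were grown in the same medium with serum. Per the labels, the RNA behind each library was pooled, and no label ties the 2 libraries of a group to different cultures. The p-values therefore measure how far these libraries spread, and that spread may be technical.

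NRF2 is a transcription factor that is made constantly and degraded constantly, because the adaptor KEAP1 hands it to a CUL3 ubiquitin ligase. Oxidants and electrophiles modify KEAP1, NRF2 then accumulates, pairs with a small MAF protein and binds antioxidant response elements of genes for glutathione, thioredoxin, quinone and heme metabolism. The repressor BACH1 competes for the same elements. Since this control acts mainly on the protein, the NFE2L2 transcript need not follow the activity of the factor, and the transcripts of its targets are the usual readout of the pathway.

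The Rg3 libraries held 30132517 and 24571619 counts and the control libraries 24482846 and 26731913. Of the 10 marker genes looked at for an ovarian cancer line with an amplified ERBB2, the keratin KRT18 was at 1557 and 2248 CPM (counts scaled to the size of each library) with Rg3, against 2302 and 2817 CPM in controls, and KRT7 and KRT8 were at 1753 CPM or more in every library. ERBB2 was at 53.5 and 45.2 CPM in Rg3 libraries, against 50.6 and 48.1 CPM in controls, and 80.6% of the genes tested had a lower mean count. MUC1 was at 2.95 and 2.28 CPM with Rg3, against 1.22 and 1.82 CPM in controls. PAX8 was at 0.26 and 0.42 CPM with Rg3, against 0.37 and 0.68 CPM in controls, and MUC16 was at 1.14 and 0.62 CPM with Rg3, against 1.79 and 1.02 CPM in controls. EPCAM had 0 counts in every library, where a count of 0 allows up to 3 counts, and KRT19 and WT1 did not pass the filter. The ERBB2 level and the absence of EPCAM counts are unusual for SKOV3, the identity of the line was not checked here, and the name SKOV3 is used below as the labels give it. Of 9 markers of blood, endothelium and liver, the endothelial CDH5 alone passed the filter, at 16.2 and 16.2 CPM with Rg3 and 17.9 and 19.5 CPM in controls. The summed level of these 9 markers was 16.9 and 16.5 CPM with Rg3, against 18.8 and 24.5 CPM in controls. The 2 erythroid markers had 0 to 5 counts in the Rg3 libraries, against 0 and 2 in control replicate 1 and 40 and 79 in control replicate 2, which stood apart.

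In the comparison of Rg3 with control, none of the 9 genes was called by edgeR's quasi-likelihood test at an adjusted p under 0.05, with 0 higher and 0 lower. In bulk libraries such as these, a change in the number of expressing cells and a change in the RNA of each cell cannot be told apart. The same test called 5 of 16323 genes higher, which is 0.0306% of the genes tested, and 0 lower. With an unadjusted p under 0.05, 1 of the 9 was higher (OSGIN1) and 0 were lower, against 1.83% of all genes tested higher and 2.9% lower. DESeq2 and limma voom also called 0 of the 9. The log2 fold changes (Rg3 over control) ran from −0.10 for NQO1 to 0.77 for OSGIN1, with 6 above 0 and 3 below. Their median was 0.14, beside 0.014 over all genes tested, of which 52.5% were above 0. The median of the 9 depended on single libraries, at −0.027 when control replicate 2 was left out, 0.18 when control replicate 1 was, 0.081 when Rg3 replicate 1 was and 0.17 when Rg3 replicate 2 was. Without Rg3 replicate 2, OSGIN1 was called. The number of all genes called also moved with each library left out, to 428 higher and 456 lower with Rg3 replicate 1 left out, 307 and 150 with Rg3 replicate 2 left out, 42 and 66 without control replicate 1, and 31 and 18 without control replicate 2. In each of these fits 1 group is a single library that is assumed to vary like the other group, whose 2 libraries alone give the spread, so calls named below without a library rest on that assumption.

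In 4 of the 9 genes both Rg3 libraries lay above both controls, and in 0 both lay below. Over all genes tested these shares were 15.3% above and 17% below. The 4 genes were GCLM, SRXN1, FTH1 and OSGIN1, with FTH1 read from its own row, without the pseudogene rows described below. With 2 libraries a group the smallest two-sided p of an exact permutation test is 0.333, so such an order cannot pass a threshold on its own.

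**Figure D1:**
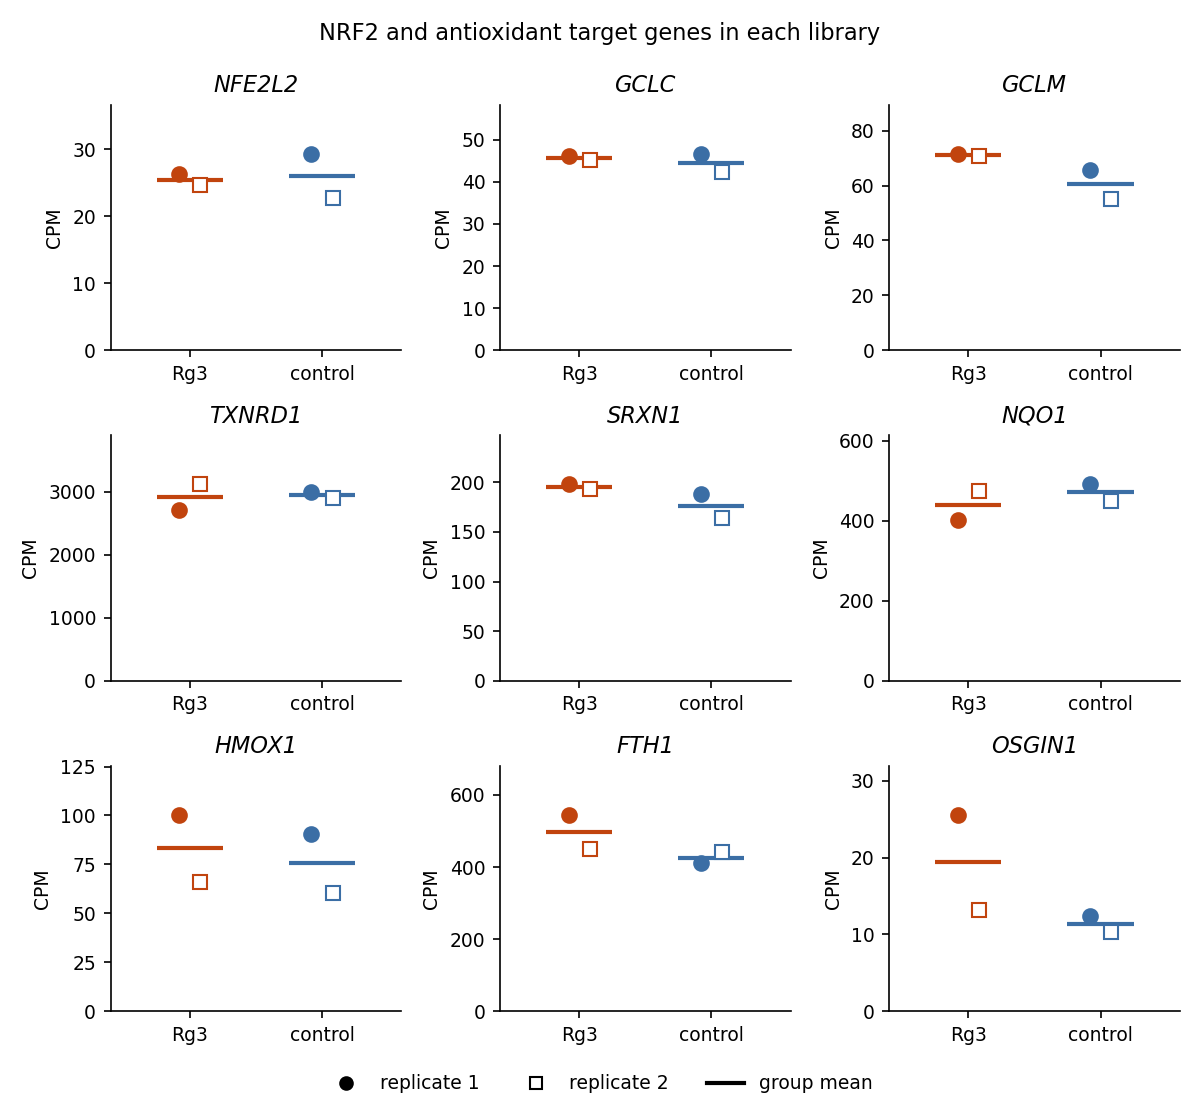
Levels of NFE2L2 and 8 NRF2 target genes in each library, in CPM on linear axes that start at 0, with Rg3 left of control, circles for replicate 1, squares for replicate 2 and a bar at each group mean. Both Rg3 libraries lie above both controls for GCLM, SRXN1, FTH1 and OSGIN1, and for the other 5 genes the groups overlap.

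NFE2L2 itself was at 26.3 and 24.7 CPM in Rg3 libraries, against 29.3 and 22.7 CPM in controls. The Rg3 values fell between the control values. The log2 fold change was −0.03 (SE 0.17), with a 95% interval from −0.43 to 0.37, which on the linear scale runs from 0.743 to 1.29-fold. Its sign turned without Rg3 replicate 2 (0.018) and without control replicate 1 (0.18).

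Windows before annotated transcription starts were searched for the letters that the pathway is read through. The core of the antioxidant response element was searched as TGACNNNGC on both strands in the 250 bases before each RefSeq start (GRCh38.p14), and the related AP-1 element as TGACTCA, which the core would overlap where GC follows it. Of the 9 genes, 7 had an entry, and the core letters stood before a start of 2 of them, GCLM and TXNRD1, and the AP-1 letters before that of OSGIN1. Over all 27305 genes with an entry, 13.2% held the core letters before at least 1 start and 5.19% the AP-1 letters, and over all 35116 starts 10.9% and 4.2% did. The windows are shown because GCLM and OSGIN1 are among the genes whose groups did not overlap, while TXNRD1 holds the same core letters at 2 starts and its groups did overlap. SRXN1, whose groups did not overlap either, held neither set of letters in its window, and FTH1 was not among the 7 genes with an entry. Capitals mark the match, read 5′ to 3′ along the gene.
GCLM, chr1:93909441-93909479, minus strand: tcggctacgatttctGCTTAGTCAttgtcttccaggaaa
TXNRD1, chr12:104215665-104215703, plus strand: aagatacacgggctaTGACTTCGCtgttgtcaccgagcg
TXNRD1, chr12:104286915-104286953, plus strand: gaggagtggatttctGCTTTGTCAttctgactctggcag
OSGIN1, chr16:83953128-83953164, plus strand: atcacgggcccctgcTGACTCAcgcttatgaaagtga
The GCLM match begins 34 bases before the start and the OSGIN1 match 97 bases before it. Those of TXNRD1 begin 99 and 102 bases before its starts. These matches describe letters only and were not measured as bound sites. Bases further upstream than 250 or after the start were not searched, so a gene without a match here may hold the element elsewhere.

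The 2 subunits of glutamate-cysteine ligase, which makes the first intermediate of glutathione, did not show the same pattern. The modifier subunit GCLM was at 71.6 and 70.6 CPM with Rg3, against 65.8 and 55.1 CPM in controls. Its Rg3 libraries lay close together and above both controls, but the gap to the higher control was smaller than the gap between the controls. The log2 fold change was 0.24 (SE 0.14), with a 95% interval from −0.10 to 0.57 and an edgeR adjusted p of 0.999. It was 0.38 without control replicate 1 and 0.12 without control replicate 2. The catalytic subunit GCLC was at 46.2 and 45.3 CPM with Rg3, against 46.7 and 42.4 CPM in controls, so that the Rg3 values lay inside the control range. Its log2 fold change was 0.04 (SE 0.14, 95% interval −0.28 to 0.35), and −0.027 without control replicate 2. The difference between the subunits was not tested.

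TXNRD1, the cytosolic selenoprotein that reduces thioredoxin, was at 2710 and 3120 CPM with Rg3, against 2994 and 2908 CPM in controls. Both controls lay between the Rg3 libraries. Its log2 fold change was −0.02 (SE 0.14), with a 95% interval from −0.35 to 0.31, and the sign turned without Rg3 replicate 1 (0.084) and without control replicate 1 (0.013). SRXN1, sulfiredoxin, which repairs overoxidised peroxiredoxins, was at 198 and 193 CPM with Rg3, against 188 and 164 CPM in controls. The groups did not overlap, and the gap between the lower Rg3 library and the higher control was smaller than the gap between the controls. Its log2 fold change was 0.15 (SE 0.14, 95% interval −0.17 to 0.48, edgeR adjusted p = 0.999). It ranged from 0.061 without control replicate 2 to 0.27 without control replicate 1. The strand of counting is not given in the sources used here, and RPL18AP3, a ribosomal protein pseudogene within TXNRD1, had 10234 and 7709 counts with Rg3 and 7851 and 8732 in controls, beside 83474 and 75145 counts of TXNRD1 with Rg3 and 73748 and 76856 in controls.

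NQO1, the quinone reductase most often used as an NRF2 reporter gene, was at 402 and 474 CPM with Rg3, against 491 and 450 CPM in controls. Rg3 replicate 1 was the lowest of the 4 libraries and control replicate 1 the highest. The log2 fold change was −0.10 (SE 0.15, 95% interval −0.45 to 0.24), and 0.016 without Rg3 replicate 1.

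HMOX1, heme oxygenase 1, which breaks heme down to biliverdin, iron and carbon monoxide, was at 100 and 66.3 CPM with Rg3, against 90.8 and 60.2 CPM in controls. In each group the library numbered 1 was well above the one numbered 2, by 0.60 on the log2 scale with Rg3 and by 0.59 in controls. The groups overlapped, and the log2 fold change of 0.14 (SE 0.25) had the interval −0.44 to 0.73. Its sign turned without Rg3 replicate 1 (−0.18) and without control replicate 2 (−0.12).

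FTH1, the heavy chain of ferritin, which stores the iron that heme breakdown releases, was at 545 and 449 CPM with Rg3, against 410 and 441 CPM in controls. Rg3 replicate 1 stood above the rest, and Rg3 replicate 2 was close to the higher control. The log2 fold change was 0.22 (SE 0.15, 95% interval −0.13 to 0.58, edgeR adjusted p = 0.999), which moved to 0.081 when Rg3 replicate 1 was left out and to 0.36 when Rg3 replicate 2 was. FTH1 has many processed pseudogenes that can share its reads. Of 24 FTH1P rows, 18 had counts and 12 were tested, and together they held 4743 and 3182 counts with Rg3, against 3284 and 3929 in controls. That was 22.0% and 22.7% of all FTH1 and FTH1P counts with Rg3 and 24.5% and 25.2% in controls. FTH1P2 and FTH1P7 held the most counts of the pseudogenes, FTH1P2 at a log2 fold change of 0.08 (SE 0.16) and FTH1P7 at −0.27 (SE 0.25). With all these rows summed into FTH1, the log2 fold change was 0.18. On that sum, scaled to library size, Rg3 replicate 2 no longer lay above control replicate 2. The value of FTH1 alone is therefore uncertain.

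OSGIN1, an oxidative stress-induced growth inhibitor, was at 25.6 and 13.2 CPM with Rg3, against 12.4 and 10.4 CPM in controls, from 788 and 317 counts with Rg3 and 306 and 274 in controls. Rg3 replicate 1 was far above the other 3 libraries, and Rg3 replicate 2 was just above the higher control. The log2 fold change was 0.77 (SE 0.30), which is 1.71-fold, with a 95% interval from 0.07 to 1.47. It had the smallest unadjusted p of the 9 genes, 0.0358, and an edgeR adjusted p of 0.999. Leaving out Rg3 replicate 1 brought the log2 fold change to 0.21, while leaving out Rg3 replicate 2 brought it to 1.17, where OSGIN1 was called (edgeR adjusted p = 0.00096) on the single Rg3 library in which it was high. OSGIN1 was also called by edgeR with no filter on low counts (adjusted p = 0.020), with an estimate of 0.78, but not by DESeq2 (adjusted p = 0.938). Its edgeR adjusted p ran from 0.00096 to 1 when each library was left out in turn. The libraries of OSGIN1 with Rg3 differed by 0.93 on the log2 scale, and 2.58% of the genes tested differed as much or more between these 2 libraries.

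**Figure D2:**
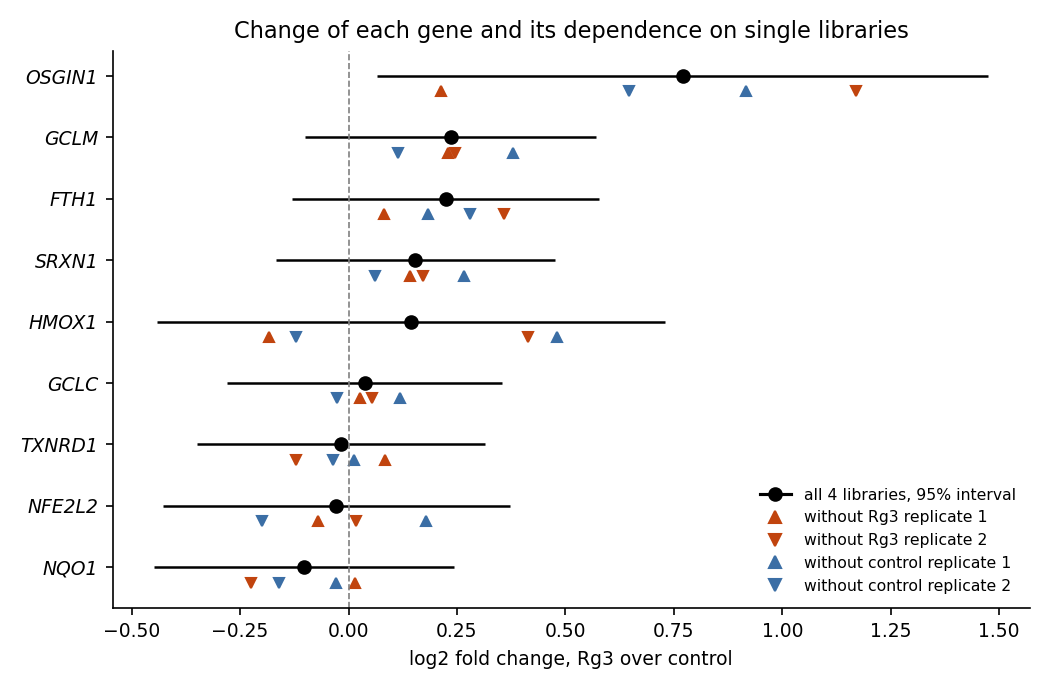
Log2 fold change of each gene, Rg3 over control, from edgeR on all 4 libraries (black, with its 95% interval) and from the 4 fits that each left out 1 library (triangles). The interval of OSGIN1, 0.07 to 1.47, is the one of 9 that lies above 0, and its triangle without Rg3 replicate 1 is at 0.21.

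The difference between libraries of one group was set beside the difference between groups for each gene. Rg3 replicate 1 was above Rg3 replicate 2 for 7 of the 9 genes, with a median of 0.034 on the log2 scale, and over all genes tested it was above for 48.9%. Between the controls the median over the 9 genes was 0.20. GCLC, GCLM and SRXN1 differed by 0.03, 0.02 and 0.03 between the Rg3 libraries, less than between the controls (0.14, 0.25 and 0.20). The 3 largest differences between Rg3 libraries were those of OSGIN1, HMOX1 and FTH1. NQO1 and TXNRD1 were lower in Rg3 replicate 1, by −0.24 and −0.20.

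**Figure D3:**
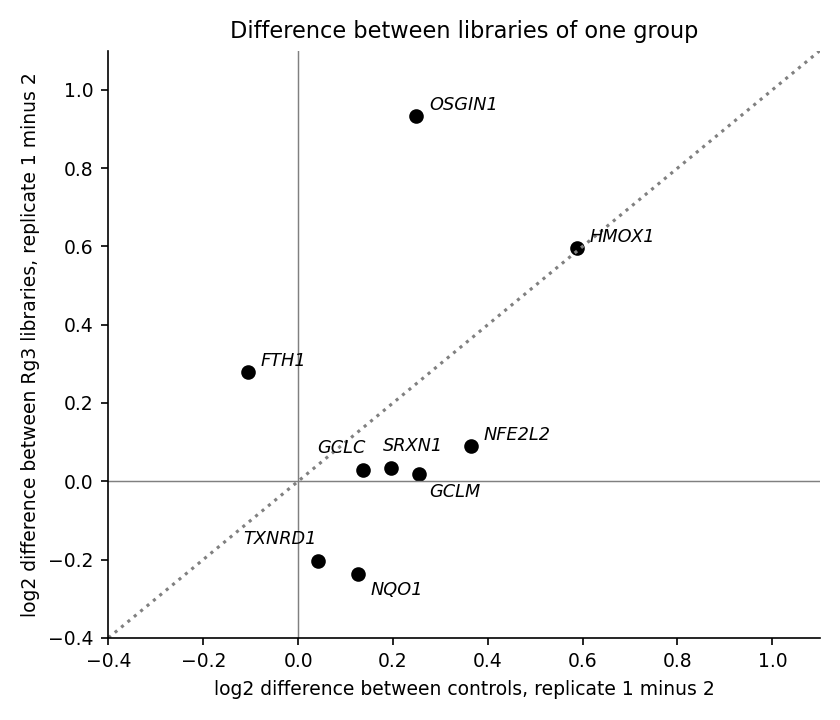
Log2 difference between replicates 1 and 2 of the Rg3 group (vertical axis) and of the control group (horizontal axis) for each of the 9 genes, with a dotted line where both are equal. HMOX1 lies on that line, at 0.60 and 0.59, and OSGIN1 is far above it, at 0.93 and 0.25.

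The genes that control NRF2 were described from a list of 12, of which 11 were tested. KEAP1, the adaptor that has NRF2 degraded, did not pass the filter, with 8 and 4 counts with Rg3 and 6 and 10 in controls, below 0.4 CPM in every library. A difference between the groups in KEAP1 was not detectable from counts this low, and why they were low was not tested. Of the 11 tested, 0 were called higher and 0 lower. Of their log2 fold changes 9 were above 0, with a median of 0.22, beside 0.014 over all genes tested. At an unadjusted threshold of 0.05, 3 were higher and 0 lower, and in the same 3 genes both Rg3 libraries lay above both controls. Over all genes tested 1.83% were higher and 2.9% lower at that threshold, and 15.3% had both Rg3 libraries above both controls.

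These 3 were SQSTM1, GSK3B and BACH1. SQSTM1, or p62, an autophagy receptor that binds KEAP1 and is itself a known NRF2 target, was at 2641 and 2042 CPM with Rg3, against 1711 and 1475 CPM in controls. Both Rg3 libraries were above both controls, with a log2 fold change of 0.56 (SE 0.17) and an edgeR adjusted p of 0.921. With every gene that had a count kept, edgeR called SQSTM1 higher at 0.56 (adjusted p = 0.0081), and with Rg3 replicate 2 left out it did so at 0.73 (adjusted p = 0.0045). GSK3B, a kinase that marks NRF2 for another ubiquitin ligase, was at 59.2 and 52.4 CPM with Rg3, against 41.9 and 43.9 CPM in controls (log2 fold change 0.38, SE 0.14). BACH1, the repressor, was at 26.8 and 24.5 CPM with Rg3, against 20.7 and 19.0 CPM in controls (log2 fold change 0.37, SE 0.15, edgeR adjusted p = 0.999). NFE2L1 and NFE2L3, are relatives of NRF2, and their log2 fold changes were −0.02 (SE 0.14) for NFE2L1 and −0.20 (SE 0.26) for NFE2L3. The median of the 11 genes relative to the mean of the controls was 0.43 in Rg3 replicate 1 and 0.055 in Rg3 replicate 2. Without Rg3 replicate 2 edgeR called 3 of the 11, SQSTM1, GSK3B and MAFK, all higher, and without any other library it called 0.

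A further 26 NRF2 targets were listed, of which 25 were tested, and 0 were called higher and 0 lower. The log2 fold changes were above 0 for 13 and below 0 for 12, with a median of 0.04. Both Rg3 libraries lay above both controls for 7 genes and below both for 7. Over all genes tested these shares were 15.3% and 17%. At an unadjusted threshold of 0.05, 1 was higher and 4 were lower, against 1.83% and 2.9% of all genes tested. AKR1B10, an aldo-keto reductase that reduces aldehydes, was at 2.08 and 3.20 CPM with Rg3, against 9.66 and 6.02 CPM in controls (log2 fold change −1.58, SE 0.32, edgeR adjusted p = 0.452). DESeq2 called it lower (adjusted p = 0.0084). So did edgeR with every gene that had a count kept, and when either Rg3 library or control replicate 2 was left out, but not when control replicate 1 was. AKR1C2, which reduces steroids, was at 113 and 120 CPM with Rg3, against 199 and 151 CPM in controls (log2 fold change −0.59, SE 0.17, edgeR adjusted p = 0.874). AKR1C2 is nearly identical to AKR1C1, so that the counts of each copy are uncertain.

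On the other side FTL, the ferritin light chain, was at 2892 and 3086 CPM with Rg3, against 2447 and 2355 CPM in controls. Both Rg3 libraries lay above both controls, as for FTH1 without its pseudogene rows, with a log2 fold change of 0.32 (SE 0.13, edgeR adjusted p = 0.999). Any pseudogene rows of FTL were not examined. SLC7A11, the cystine importer that feeds glutathione synthesis, was at 184 and 138 CPM with Rg3, against 135 and 101 CPM in controls (log2 fold change 0.45, SE 0.20). Rg3 replicate 2 was barely above control replicate 1. GSR, glutathione reductase, was at 293 and 310 CPM with Rg3, against 290 and 257 CPM in controls (log2 fold change 0.14, SE 0.14). Calls in this list changed with the libraries used. Without Rg3 replicate 1 edgeR called FTL and PIR higher, and AKR1B10 and ABCC3 were among the genes called lower. Without Rg3 replicate 2 it called SLC7A11 higher and AKR1B10 and AKR1C2 lower, and without control replicate 2 it called AKR1B10 lower.

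**Figure D4:**
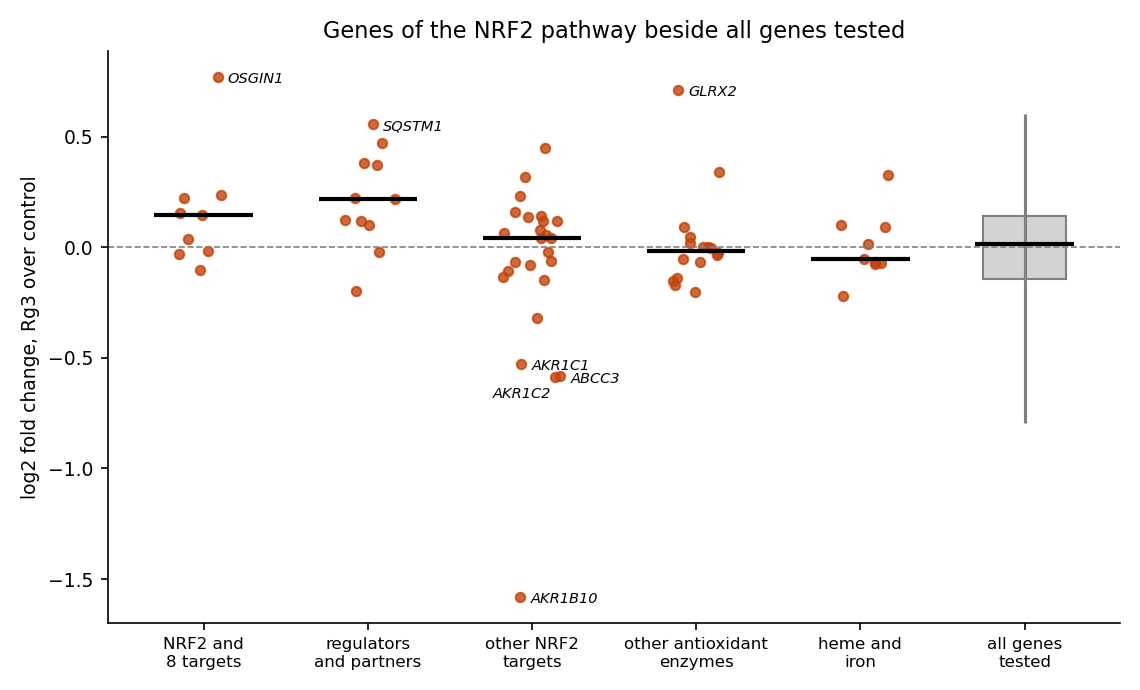
Log2 fold change (Rg3 over control) of each tested gene in 5 lists, with a bar at each list's median, beside all 16323 genes tested (box from the lower to the upper quartile, −0.15 to 0.14, and line from −0.79 to 0.60, the central 95%). Genes beyond 0.5 in either direction are named, and the lowest is AKR1B10 at −1.58.

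Antioxidant enzymes that are not core NRF2 targets served as a further list, and all 16 were tested. None was called, with 0 higher and 0 lower, and their median log2 fold change was −0.02, with 7 above 0 and 9 below. SOD2, the mitochondrial superoxide dismutase, was at 54.5 and 52.2 CPM with Rg3, against 43.0 and 41.4 CPM in controls (log2 fold change 0.34, SE 0.13, edgeR adjusted p = 0.999). GLRX2, a mitochondrial glutaredoxin, was at 4.77 and 9.01 CPM with Rg3, against 4.02 and 4.35 CPM in controls. Its level in Rg3 replicate 2 stood alone, and the edgeR call of GLRX2 without Rg3 replicate 1 rests on that single Rg3 library. On the lower side PRDX2, a peroxiredoxin, was at a log2 fold change of −0.17 (SE 0.13) and GSS, glutathione synthetase, at −0.20 (SE 0.16).

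Of 10 genes of heme and iron handling 9 were tested, with 0 called higher, 0 lower and a median log2 fold change of −0.05. ACO1, which as IRP1 binds iron-responsive elements, was at 58.0 and 60.9 CPM with Rg3, against 50.1 and 44.8 CPM in controls (log2 fold change 0.33, SE 0.14, edgeR adjusted p = 0.999). IREB2, the related IRP2, had a log2 fold change of 0.10 (SE 0.13). The iron exporter SLC40A1 and the biliverdin reductase BLVRA had −0.22 (SE 0.26) and −0.07 (SE 0.16). The mitochondrial ferritin FTMT had 0 counts in every library.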

How the data were processed

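Total RNA of SKOV3 cells was depleted of ribosomal RNA and sequenced, per the labels' protocols, and the labels name 2 different makes of sequencer. The authors deposited raw whole-number read counts per gene symbol, not normalised, with a column for each library. The build was GRCh37 per the submitters' processing notes, and the aligner, counter, annotation and strand setting are not given in the sources used here. Groups came from the treatment label.

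Counts were tested in R 4.3.3 with edgeR 4.0.16 (filterByExpr with a minimum count of 10 and total of 15, TMM, quasi-likelihood test, treatment as the only term, 2 residual degrees of freedom, Benjamini-Hochberg over all genes tested, threshold 0.05). Simulated counts with the same spread in both groups were used to check the sign of calls and the size of estimates. They did not check the test at the unequal spread of these groups. CPM values use TMM-scaled library sizes. Standard errors and 95% intervals come from the F statistic. DESeq2 1.42.0 and limma 3.58.1 (voom) were alternatives. The counts of the 2 libraries of a group differed by more than sampling noise (chi-square per degree of freedom 48.8 with Rg3 and 9.89 in controls).

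The members and lists were chosen with earlier results of these data known. Named were all members and, of each list, called genes or the 2 with the smallest p in each direction, plus KEAP1, BACH1, SLC7A11, FTL and GSR. MAFK, PIR and ABCC3 were named after their values were seen. A gene of the lists that stayed in every test and count is not reported here.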

Additional observations from a re-analysis of the deposited data

How the results depend on the processing

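Rescaling by DESeq2's size factors, or by TMM without rows picked as small RNA by symbol prefix, changed no sign and no call of the 9 genes. Mitochondrial rows without the prefix MT-, such as the transfer RNA genes TRNN and TRNV, stayed in that TMM scaling. A mean count of at least 50 also changed no sign and no call of the 9 genes. The 4 genes with separate groups were 4 under each of these settings and without a low-count filter. Without that filter edgeR called 90 genes higher and 124 lower, among them 1 of the 9 (OSGIN1), 1 regulator (SQSTM1, higher) and 2 other NRF2 targets (AKR1B10 and AKR1C2, lower). DESeq2 called 37 higher and 17 lower, among them 1 other target, lower. The replicate numbers are shared by label only. With them as a replicate block, 69 genes were higher and 86 lower, among them 0 of the 9 and 2 other targets, both lower (AKR1B10 and ABCC3), and OSGIN1 had an edgeR adjusted p of 0.069. Differences between replicates 1 and 2 of both groups had r = 0.281 across genes, and 2 pairs cannot show a pairing. Over fits leaving out 1 library, 31 to 428 genes were called higher and 18 to 456 lower. Calls were 0 to 1 of the 9 (higher), 0 to 3 regulators (higher), 0 to 2 (higher) and 0 to 3 (lower) other targets, and 0 to 1 antioxidant enzymes (higher). The median of the 9 ran from −0.027 to 0.18. Log2 fold changes ran from −0.23 to 0.016 for NQO1, −0.18 to 0.48 for HMOX1, −0.12 to 0.084 for TXNRD1, −0.20 to 0.18 for NFE2L2 and −0.027 to 0.12 for GCLC. The cause was not tested. With 2 libraries a group, intervals were wide, and their upper 95% bounds ran from 1.18-fold for NQO1 to 2.78-fold for OSGIN1.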

Other observations

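KEAP1 had 4 to 10 counts in each library and did not pass the low-count filter. Of the genes tested, all of which passed it, 0.0184% had a lower mean count, a place that the filter fixed in advance. Among all 40205 rows, 14537 held no count. The 6 nearest protein-coding genes to KEAP1 in RefSeq order, looked up after its counts were seen, had more counts in every library. PDE4A and S1PR5, which flank it, had 63 to 75 and 45 to 69 counts with Rg3 and 61 to 74 and 53 to 62 in controls. CDC37, a neighbour further out and a kinase co-chaperone, had 4644 and 3371 counts with Rg3 and 3656 and 3713 in controls. The reads behind these rows were not analysed here, and the cause was not tested. Among the NRF2 targets followed here, mean counts stood above those of 55.9% (OSGIN1) to 99.9% (TXNRD1) of the genes tested. That scale is not corrected for gene length, and a relation to the KEAP1 counts was not tested.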
